A study of Mus musculus with 6 samples.

Results

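The nuclear genes of the mitochondrial respiratory chain and ATP synthase were examined in mouse liver regenerating after a portal branch ligation. Members were all genes whose RefSeq symbols start with Ndufa, Ndufb, Ndufc, Ndufs or Ndufv (complex I), Uqcr (complex III), Cox4, Cox5, Cox6, Cox7 or Cox8 (complex IV) or Atp5 (complex V), together with Sdha, Sdhb, Sdhc and Sdhd (complex II) and Cyc1 (complex III). The rule gave 116 symbols, of which 97 were protein coding and 19 were pseudogenes. An array probe was matched to 94 of them by transcript accession, among 20018 genes with a probe, and 92 were bright enough to be tested. Cox7b2 and Cox8c had probes that no array measured well above background and were not tested. Of the 22 symbols without a matched probe, the protein-coding ones were Ndufb1, Ndufb4b and Ndufb4c, and the rest were the pseudogenes.

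The respiratory chain sits in the inner mitochondrial membrane. Complex I takes electrons from NADH and complex II from succinate, coenzyme Q carries them to complex III, cytochrome c carries them on to complex IV, and complex IV passes them to oxygen. Complexes I, III and IV pump protons, and complex V, the ATP synthase, uses the returning protons to make ATP. Most subunits are encoded in the nucleus, as are all members here, while a small set of core subunits is encoded in mitochondrial DNA and was not analysed here. Hepatocytes are rich in mitochondria and rely on this chain for the ATP that gluconeogenesis and urea synthesis consume.

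All samples were total RNA of the right liver lobe of male C57BL/6J mice, collected 3 days after surgery and labelled with Cy3 on 6 one-colour Agilent arrays. In the 3 PVBL samples the left portal vein branch had been ligated, so the right lobe was the lobe that regenerates. The 3 sham samples came from mice given sham surgery. Whether the numbered samples of a group are different mice is not in the labels, and p-values therefore measure the spread between these samples alone, which may be technical. Right lobe tissue holds several cell types, and fewer cells of a type cannot be told apart from less RNA per cell.

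On the 6 arrays between 48.1% and 53.6% of probes were well above background and no spot was saturated. The 75th percentile of the processed signal, used to scale each array, was 407, 331 and 340 units for PVBL 1 to 3 and 315, 301 and 203 units for sham 1 to 3. On the single slide, row 1 held sham and row 2 held PVBL, and the effect of the row cannot be told apart from that of the surgery. All 10 hepatocyte markers were well above background on all 6 arrays, Cyp2e1 (-1.07) and Fgb (-0.53) were called lower and the other 8 were not called, and their summed log2 level was 12.38 to 12.76 in PVBL and 12.93 to 13.09 in sham. All 5 markers of proliferating cells were called higher in PVBL. Top2a among them passed the filter through its PVBL arrays alone, so its call is no support. Called higher too were 4 of 8 stellate and myofibroblast markers (Col1a1 and Acta2 by 2.21 and 1.75, with 1, Lrat, lower). Of 5 biliary markers tested, Krt19 and Krt7 were called higher and Cftr lower. Krt7 passed the filter through its PVBL arrays alone and Cftr through its sham arrays alone, so their calls are no support. Of 7 Kupffer cell and macrophage markers, Marco was called higher (by 2.52) and the rest were not called, with a list median of -0.35. Of 7 sinusoidal endothelial markers 2 were called lower (Clec4g at -1.49 and Fcgr2b at -0.89). The part of cell composition in the results below was not tested.

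Short stretches of the promoters of 7 members, from RefSeq on build GRCm38.p6, are shown. The first 5, 1 per complex, were picked because they hold matches to the motifs below, which many members do not, and the last 2 because those genes stood apart in their difference between the groups. They are written in the sense of transcription, and each ends at the base before the annotated start. Capitals mark matches on either strand to the motifs of NRF1 (both capital runs of 10 letters in Ndufb4 and the first in Cox6a1 are examples), of the ETS family to which GABP belongs (CCGGAAG), of YY1 (the first capitals in Atp5j) and of ESRRA (TNAAGGTCA, in Ndufb4). These factors are known activators of nuclear genes for mitochondrial proteins. The first 5 belong to complexes I, II, III, IV and V in that order, and the last 2 are Cox6b2 and Cox8b.
Ndufb4 (chr16:37654369-37654468, minus strand): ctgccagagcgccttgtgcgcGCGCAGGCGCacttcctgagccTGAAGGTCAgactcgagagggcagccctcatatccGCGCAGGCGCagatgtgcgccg
Sdhd (chr9:50603850-50603949, minus strand): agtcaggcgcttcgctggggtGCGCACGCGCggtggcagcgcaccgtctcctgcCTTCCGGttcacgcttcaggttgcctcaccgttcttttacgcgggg
Uqcr11 (chr10:80406822-80406921, minus strand): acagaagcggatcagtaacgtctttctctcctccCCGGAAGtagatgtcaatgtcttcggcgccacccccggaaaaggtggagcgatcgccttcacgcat
Cox6a1 (chr5:115348959-115349128, minus strand): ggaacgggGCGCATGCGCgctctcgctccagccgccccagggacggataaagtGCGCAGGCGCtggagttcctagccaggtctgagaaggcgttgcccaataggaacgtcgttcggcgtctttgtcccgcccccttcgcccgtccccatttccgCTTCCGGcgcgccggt
Atp5j (chr16:84834977-84835076, minus strand): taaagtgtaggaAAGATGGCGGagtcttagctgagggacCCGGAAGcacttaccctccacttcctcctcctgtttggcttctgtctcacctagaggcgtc
Cox6b2 (chr7:4753095-4753194, minus strand): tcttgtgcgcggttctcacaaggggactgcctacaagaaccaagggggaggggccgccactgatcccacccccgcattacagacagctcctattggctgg
Cox8b (chr7:140900447-140900546, minus strand): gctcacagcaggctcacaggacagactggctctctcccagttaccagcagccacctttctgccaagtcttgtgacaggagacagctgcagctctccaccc
The stretches of Cox6b2 and Cox8b hold none of these motifs, as is so of many other members.

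A promoter window from 250 bases before to 50 bases after the start was given for 76 members. The full NRF1 palindrome, the first capitals of the Cox6a1 stretch, was present in 7 of them (9.21%) against 1.47% of 17492 protein-coding genes. With its sixth base left free, a motif that includes the palindrome, 19 members had a match (25% against 7.17%). The ETS letters were also present in 19 members (25% against 12.9%), the YY1 letters in 6 (7.89% against 1.41%) and the ESRRA letters in 3 (3.95% against 1.19%). The SP1 letters GGGCGG were present in 46.1% of members and 49.2% of coding genes, and the MYC letters CACGTG in 7.89% and 8.91%. These are matches of letters on both strands and are given as a description, with no test. Split by call, 4 of 28 lower members with a window and 15 of 45 uncalled members held the NRF1 motif with the free base, while the ETS letters were in 9 of 28 and 10 of 45.

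On the scale used here most members had a small difference below 0, of similar size across the complexes, while Cox6b2 and Cox8b differed by far more (with spike-in scaling, described below, the median is near 0). A level is the log2 processed signal minus the 75th percentile of its array, and a difference is the PVBL mean minus the sham mean. The median difference over the 92 members was -0.41, and 85 of them were below 0. Over all 13586 genes tested the median was -0.10. In a limma fit across all of those genes, with Benjamini-Hochberg adjustment and a threshold of 0.05, 35 members (38.0%) were called lower, 2 were called higher and 55 were not called. The 35 include Cox8b, which entered the test through its sham arrays alone. Among all genes tested, 17.8% were called lower, 15.1% higher and 32.9% in either direction. In 71 members every PVBL array was below every sham array, and such separation was seen in 29.1% of all genes tested (51.5% with PVBL on either side). The 2 members called higher were Cox6b2 and Ndufab1, and both had all PVBL arrays above all sham arrays, as did 22.3% of all genes.

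The direction of the shared shift depends on how the arrays are scaled. The median difference over members was -0.27 when each array was scaled on its median and -0.19 after quantile normalization, and it turned to 0.02 when the arrays were scaled on 262 spots of the spike-in control RNA. That last scaling moved the median of all genes to 0.33. The 75th percentile, median and spike-in scalings each shift a whole array by a constant, so under all 3 the members stand at -0.30 relative to the median of all genes by construction. Quantile normalization can alter that distance, and gave -0.14. The number of members called lower was 15 with median scaling, 11 after quantile normalization and 1 with spike-in scaling. What follows is on the 75th percentile scale unless said otherwise, and a member named as lower is lower on that scale.

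**Figure D1:**
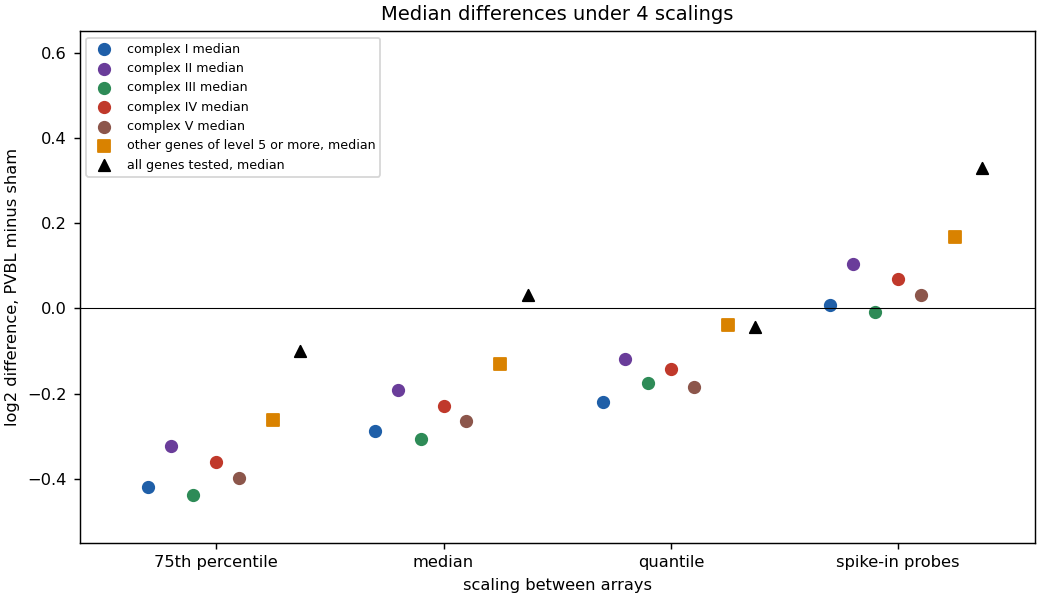
Median log2 difference, PVBL minus sham, on the y axis under each of 4 scalings on the x axis, for complexes I to V (circles), for the other genes of mean level 5 or more and for all genes tested. The medians of the complexes lie below both comparison sets under the 75th percentile and after quantile normalization, an order that median and spike-in scaling cannot change, while with the spike-in probes they lie around 0 and the median of all genes is 0.33.

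Arrays of the same group differed in the size of the shift. Taken as deviations from each gene's mean over the 6 arrays, the median over members was -0.23, -0.04 and -0.35 on PVBL 1 to 3 and 0.15, 0.14 and 0.32 on sham 1 to 3. PVBL 2 was nearest to the sham arrays and sham 3 the highest. Other genes of mean level 5 or more, of which 1516 were tested, followed the same order within each group, at -0.13, 0.04 and -0.26 on PVBL 1 to 3 and 0.14, 0.06 and 0.18 on sham 1 to 3. Leaving out PVBL 2 raised the number of members called lower to 48, and leaving out PVBL 1 reduced it to 7. It was 19 without PVBL 3 and 6, 8 and 7 without sham 1, 2 and 3. Of the 37 called members, 7 kept their call without any 1 of the 6 arrays: Cox6b2, Cox7b, Cox8b (tested through its sham arrays alone), Ndufa6, Ndufa7, Ndufb9 and Sdhb.

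**Figure D2:**
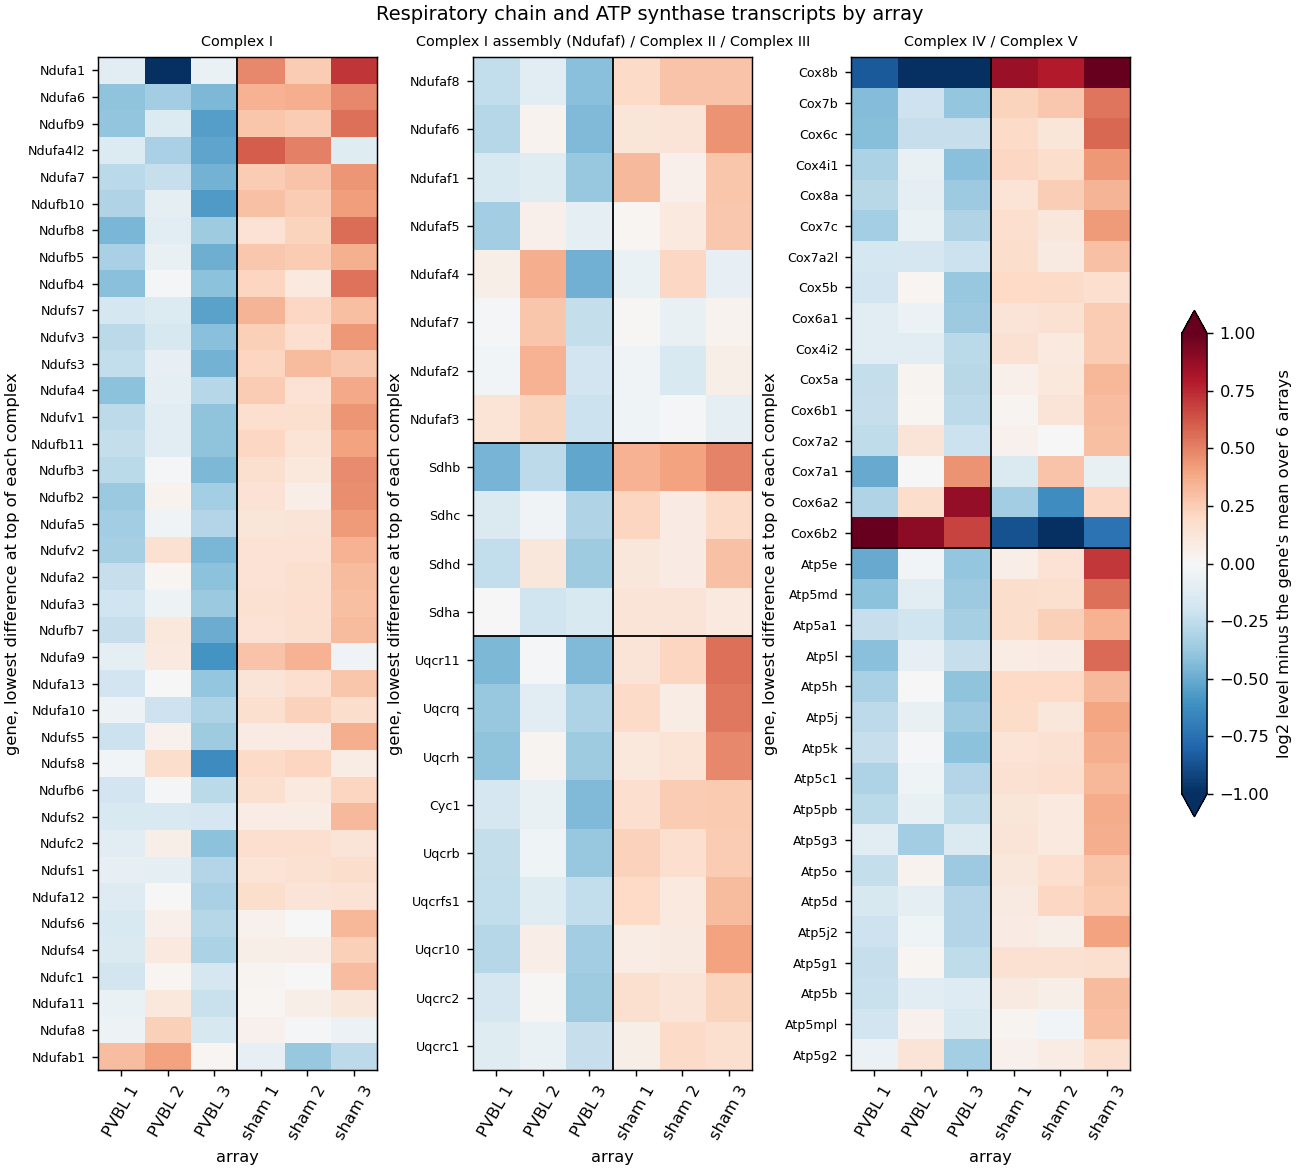
Log2 level of each of the 92 members on each array minus the mean of that gene over the 6 arrays, with arrays in columns, genes in rows by complex and the colour scale held at -1 and 1. On this scale most rows are blue (lower) on PVBL 1 and PVBL 3, paler on PVBL 2 and red (higher) on the sham arrays; Cox6b2 and Ndufab1 run the other way.

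Members have bright probes, and bright genes as a whole were lower in PVBL on this scale. Among genes of mean level 5 or more, 73 were members, with a median difference of -0.43, and the 1516 others had a median of -0.26. Of those members 31 (42.5%) were called lower, beside 25.3% of the other genes and 26.1% of all 1589 genes of that level. The share called lower was 0% of members and 20.3% of others at levels of 5 to 6, 35.7% and 29.2% at 6 to 7, 60% and 27.0% at 7 to 8, and 33.3% and 30.1% at 8 or more, so 21 of the 31 calls came from the step of 7 to 8. PVBL lay wholly below sham in 86.3% of the members, 42.3% of the others and 44.3% of all genes of that level. Step by step, members and other genes had medians of -0.31 and -0.17 at levels of 5 to 6, -0.42 and -0.25 at 6 to 7, -0.46 and -0.32 at 7 to 8, and -0.48 and -0.42 at 8 or more. The distance between members and other genes was thus smallest in the brightest class, which held 15 members. After quantile normalization the medians at level 5 or more were -0.19 for members and -0.04 for other genes, and with spike-in scaling they were 0.00 and 0.17. The part of probe brightness in the calls was not tested.

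**Figure D3:**
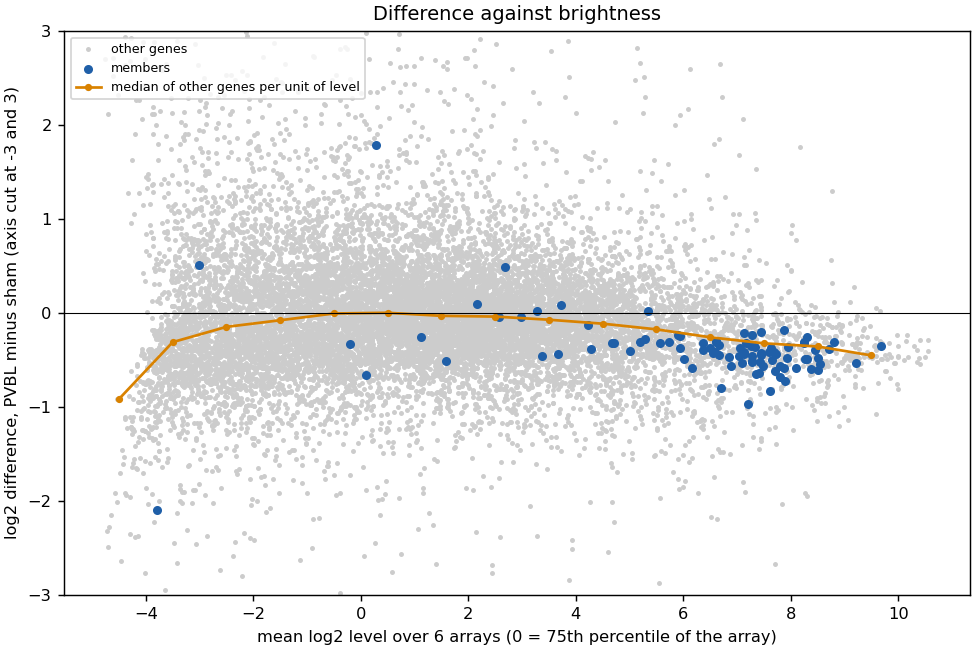
Log2 difference, PVBL minus sham, on the y axis (shown from -3 to 3) against the mean log2 level over 6 arrays on the x axis, for members (blue) and other genes (grey), with the median of the other genes per unit of level (orange). The orange line falls as the level rises, from -0.17 at 5 to 6 to -0.42 at 8 or more, and most members lie below it; with spike-in scaling the medians at level 5 or more are 0.00 for members and 0.17 for other genes.

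Complex I, the NADH dehydrogenase, had 38 tested members apart from its Ndufaf assembly factors, and their median difference was -0.42 (0.01 with spike-in scaling). Of these, 15 (39.5%) were called lower and 1 (2.63%) higher, beside 17.8% and 15.1% of all genes tested. In 29 of them every PVBL array was below every sham array, as in 29.1% of all genes tested. The 7 core subunits, which hold the flavin and the iron-sulfur clusters, ranged from -0.57 to -0.31, with Ndufs7, Ndufs3 and Ndufv1 called lower. Ndufs7 had levels of 6.71, 6.75 and 6.35 in PVBL and 7.23, 7.09 and 7.19 in sham, a difference of -0.57 ± 0.15 (SE; n = 3 against 3, limma adjusted p = 0.0244). Ndufv1, which binds NADH through its flavin, differed by -0.52 ± 0.14 (adjusted p = 0.030). Among the 30 accessory subunits, which surround the core, 12 were called lower and 1 higher.

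Ndufa6, an accessory subunit, had levels of 6.30, 6.36 and 6.26 in PVBL and 7.06, 7.07 and 7.19 in sham. The arrays of each group lay close together, with SDs of 0.05 and 0.07, and the groups were far apart by comparison. It was 1.74-fold lower in PVBL, a log2 difference of -0.80 ± 0.11 (limma adjusted p = 0.00275). Ndufb9 had levels of 7.49, 7.75 and 7.34 in PVBL and 8.16, 8.14 and 8.43 in sham, and was 1.65-fold lower (-0.72 ± 0.16, adjusted p = 0.0138). Ndufa7 had levels of 7.09, 7.13 and 6.89 in PVBL and 7.61, 7.65 and 7.80 in sham, and was 1.57-fold lower (-0.65 ± 0.13, adjusted p = 0.00967). These 3 genes kept their calls under quantile and median scaling and lost them with spike-in scaling, where the differences were -0.37, -0.29 and -0.22. Against the median of the other 37 subunits on the same array, Ndufa6 differed by -0.30 without overlap between the groups. On that measure Ndufb9 and Ndufa7 differed by -0.17 and -0.10, with overlapping groups. The genes were picked by their values, so this carries no test.

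Ndufb10, Ndufb8 and Ndufb5, which belong to the membrane arm, were 1.56-fold, 1.53-fold and 1.50-fold lower (limma adjusted p = 0.019, 0.0265 and 0.0197). The arrays did not overlap between the groups in any of the 3. Ndufa1, a small membrane subunit, had the lowest difference of complex I at -0.97 ± 0.33 and was not called (adjusted p = 0.0613). Its levels were 7.11, 5.93 and 7.14 in PVBL and 7.69, 7.47 and 7.93 in sham, so PVBL 2 was low beside the other PVBL arrays. Ndufa13, the brightest of the complex, was at 8.53, 8.71 and 8.33 in PVBL and 8.85, 8.88 and 8.99 in sham, without a call (-0.39 ± 0.14, adjusted p = 0.0693; 0.04 with spike-in scaling). Ndufa4, kept here by its symbol although later work counts it with complex IV, was called lower (-0.52 ± 0.14, adjusted p = 0.0258). Its paralogue Ndufa4l2, known as a hypoxia-induced gene, differed by -0.66 ± 0.22 without a call (adjusted p = 0.0534).

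Ndufab1 and Ndufa8 departed from the other subunits of complex I. Ndufab1 is the mitochondrial acyl carrier protein, which also serves lipoic acid and iron-sulfur cluster synthesis. Its levels were 2.99, 3.08 and 2.69 in PVBL and 2.59, 2.30 and 2.41 in sham, and it was 1.40-fold higher in PVBL (0.49 ± 0.15, limma adjusted p = 0.0455), a call kept under median and quantile scaling but in only 1 of the 6 fits without an array and lost with spike-in scaling at 0.91. Ndufa8 had levels of 5.30, 5.59 and 5.19 in PVBL and 5.40, 5.33 and 5.29 in sham, with overlapping groups (0.02 ± 0.14, adjusted p = 0.913). Against the median of the other 37 subunits on the same array, a distance that a constant shift of an array does not alter but quantile normalization can, Ndufab1 was 0.99 higher in PVBL and Ndufa8 0.52 higher, without overlap between the groups in either. Both genes were chosen for this comparison after their values were seen, so it carries no test.

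The 8 Ndufaf genes encode factors that help to assemble complex I and are not subunits of it. Their median difference was -0.15 (0.28 with spike-in scaling). Ndufaf8 and Ndufaf1 were called lower (-0.51 ± 0.13, limma adjusted p = 0.0227, and -0.44 ± 0.14, adjusted p = 0.0477), and both lost the call with spike-in scaling at -0.08 and -0.01. Ndufaf7, Ndufaf2 and Ndufaf3 lay between 0.02 and 0.10. Probes disagreed for Ndufaf4, where the brighter probe gave -0.04 without a call and the other was called lower at -0.61.

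Complex II, succinate dehydrogenase, is shared with the citric acid cycle. All 4 genes had differences below 0, with a median of -0.32 (0.10 with spike-in scaling), and Sdhb alone was called. Sdhb, the iron-sulfur subunit, had levels of 7.16, 7.36 and 7.10 in PVBL and 7.96, 8.02 and 8.12 in sham. All PVBL arrays were below all sham arrays by more than the spread within either group. It was 1.78-fold lower (-0.83 ± 0.12, limma adjusted p = 0.00366), its 2 probes were both called lower, and the difference with spike-in scaling was -0.40 without a call. Sdha, the flavoprotein, was at 5.90, 5.70 and 5.75 in PVBL and 6.04, 6.03 and 6.01 in sham (-0.24 ± 0.11, adjusted p = 0.147). The membrane anchors Sdhc and Sdhd differed by -0.32 ± 0.12 and -0.32 ± 0.16 (adjusted p = 0.0835 and 0.154), and all 3 uncalled genes were above 0 with spike-in scaling, at 0.19 for Sdha, 0.10 for Sdhc and 0.11 for Sdhd. Against the median of the other 3 genes on the same array, Sdhb was lower in PVBL by a log2 difference of -0.59 without overlap, a description chosen after its values were seen.

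In complex III, the cytochrome bc1 complex, no member had overlapping groups. All 9 members had every PVBL array below every sham array, as did 29.1% of all genes tested and 44.3% of those of mean level 5 or more. The differences ran from -0.60 to -0.27 with a median of -0.44 (-0.01 with spike-in scaling), and 5 were called lower. That share, 55.6%, stands beside 17.8% of all genes tested and 26.1% of those of mean level 5 or more. Uqcr11, a small subunit, had levels of 7.93, 8.37 and 7.94 in PVBL and 8.50, 8.59 and 8.93 in sham (-0.60 ± 0.18, limma adjusted p = 0.0411). Uqcrq, the brightest member of the complex, was at 8.83, 9.1 and 8.90 in PVBL and 9.40, 9.28 and 9.73 in sham (-0.53 ± 0.16, adjusted p = 0.0403). The catalytic subunits Cyc1, which carries the haem of cytochrome c1, and Uqcrfs1, the Rieske iron-sulfur protein, were called lower at -0.46 ± 0.14 and -0.41 ± 0.12 (adjusted p = 0.0395 and 0.0359), each kept that call in 1 of the 6 fits without an array, and Uqcrfs1 lay at 0.015 and Cyc1 at -0.03 with spike-in scaling. The core proteins Uqcrc1 and Uqcrc2 were not called, at -0.27 ± 0.12 and -0.34 ± 0.13.

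Complex IV, cytochrome c oxidase, had a median of -0.36 over 16 members (0.07 with spike-in scaling), with 7 called lower and 1 higher. These shares were 43.75% and 6.25%, beside 17.8% and 15.1% of all genes tested. The 7 called lower include Cox8b, which entered the test through its sham arrays alone. The 11 isoforms common to most tissues lay between -0.68 and -0.23, and 6 of them were called lower. Cox7b had levels of 7.37, 7.59 and 7.42 in PVBL and 8.02, 8.07 and 8.33 in sham, without overlap, and was 1.61-fold lower (-0.68 ± 0.14, limma adjusted p = 0.0107). Cox6c and Cox4i1, the common counterpart of Cox4i2, were 1.50-fold and 1.45-fold lower (adjusted p = 0.0278 and 0.0274), and Cox8a 1.40-fold lower (adjusted p = 0.0282). Cox7a2l was called lower at -0.37 ± 0.11 (adjusted p = 0.0432), but the call was lost whichever array was left out, and the difference was 0.06 with spike-in scaling. Cox6a1, the brightest member, was at 9.56, 9.61 and 9.31 in PVBL and 9.80, 9.82 and 9.93 in sham (-0.36 ± 0.13, adjusted p = 0.0748), and lay at 0.04 after quantile normalization and 0.07 with spike-in scaling.

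Cox6b2 and Cox8b stood apart from the other members of complex IV. Cox6b2, known as a testis isoform of the subunit that faces cytochrome c, had processed signals of 1069, 748 and 663 units in PVBL and 209, 174 and 148 units in sham. On the log2 scale these were 1.39, 1.18 and 0.96 in PVBL and -0.59, -0.79 and -0.46 in sham, and each PVBL array was above each sham array. The gene was 3.46-fold higher in PVBL (1.79 ± 0.16, limma adjusted p = 0.000393). It was called higher under all 17 alternative settings. Its common partner Cox6b1 had levels of 4.98, 5.22 and 4.94 in PVBL and 5.23, 5.33 and 5.51 in sham and was not called (-0.31 ± 0.14, adjusted p = 0.125; 0.12 with spike-in scaling). Against the median of the other 15 members of complex IV on the same array, Cox6b2 was higher in PVBL by 2.05 on the log2 scale, without overlap. It was picked for this by its values, so the comparison carries no test.

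Cox8b, known as the isoform of heart and skeletal muscle, ran the other way. Its processed signals were 16.3, 11.3 and 10.4 units in PVBL, and 41.2, 37.5 and 41.5 units in sham. The probe was well above background on the 3 sham arrays and on none of the PVBL arrays. It was at least 2.64-fold lower in PVBL, taking the lowest signal of a probe well above background as the limit (limma adjusted p = 0.000795). The probe entered the test through the sham arrays alone, so the p and its call are no support for the difference. The bound holds for that signal and scale alone. With normexp background correction the difference was -0.73, and with spike-in scaling it was -1.67. Of 12 striated muscle markers with a probe, 3 (Myh6, Pygm and Tnni2) were well above background on all arrays and 7 (Actn2, Ckm, Mb, Myh1, Myh4, Mylpf and Tnnt3) on none, and 4 were tested. Of these Myh6, Pygm and Tnni2 were not called, and Myh2 was well above background on the sham arrays alone, so its lower call is no support either. The summed log2 level of the 12 markers was 0.37 to 0.50 in PVBL and 0.67 to 1.18 in sham. Of 6 adipose tissue markers with a probe, Adipoq, Plin1 and Retn were well above background on no array. Fabp4 was called higher (1.11) and Cfd lower (-2.80). Lep was well above background on 3 arrays alone, those of sham, so its lower call (-1.11) is no support either. The summed log2 level of the 6 adipose markers was 3.29 to 3.82 in PVBL and 2.38 to 3.08 in sham. The part of muscle or adipose RNA in the Cox8b difference was not tested.

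Other tissue isoforms did not pass the test. Cox4i2, the lung isoform, differed by -0.33 ± 0.12 (limma adjusted p = 0.0664; 0.10 with spike-in scaling). Cox7a1, a heart and muscle isoform, had levels of 2.07, 2.57 and 3.03 in PVBL and 2.43, 2.86 and 2.50 in sham, with overlapping groups (-0.04 ± 0.25, adjusted p = 0.911). Cox6a2, also of heart and muscle, was dim at -3.32, -2.84 and -2.14 in PVBL and -3.37, -3.64 and -2.81 in sham (0.51 ± 0.33, adjusted p = 0.272; -0.06 with normexp). Cox7a2, the common partner of Cox7a1, differed by -0.23 ± 0.16 (adjusted p = 0.290; 0.01 after quantile normalization and 0.20 with spike-in scaling).

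**Figure D4:**
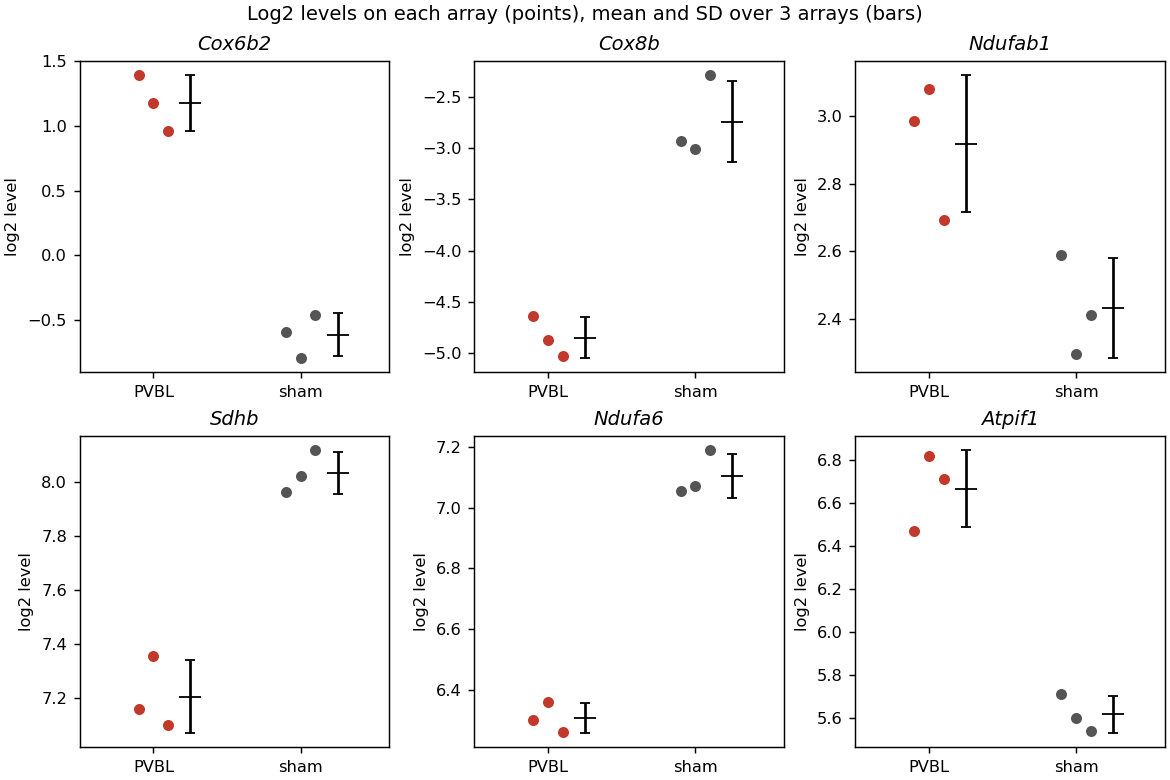
Log2 level on each array (points, 3 per group) with mean and SD (bars) for Cox6b2, Cox8b, Ndufab1, Sdhb, Ndufa6 and the ATP synthase inhibitor Atpif1, each panel with its own y axis. The PVBL and sham points do not overlap in any panel, with PVBL above sham for Cox6b2, Ndufab1 and Atpif1; the PVBL points of Cox8b are not well above background.

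Complex V had 17 members with a median of -0.40 (0.03 with spike-in scaling). All 17 were below 0 and 15 had every PVBL array below every sham array. Such separation was seen in 29.1% of all genes tested and 44.3% of those of mean level 5 or more. In total 5 were called lower, 2 of the 5 in the catalytic F1 head, 2 of the 4 in the peripheral stalk and 1 of the 8 in the membrane part. The share called lower was 29.4%, beside 17.8% of all genes tested and 26.1% of those of mean level 5 or more. Atp5a1, the alpha subunit, had levels of 7.04, 7.08 and 6.95 in PVBL and 7.45, 7.51 and 7.62 in sham and was called lower (-0.51 ± 0.12, limma adjusted p = 0.0164; -0.08 with spike-in scaling, not called). Atp5b, the catalytic beta subunit and the brightest member, was at 8.59, 8.70 and 8.68 in PVBL and 8.90, 8.87 and 9.13 in sham and was not called (-0.31 ± 0.12, adjusted p = 0.0985; 0.04 after quantile normalization and 0.12 with spike-in scaling). In the head Atp5c1, the gamma subunit, was also called. The stalk subunits Atp5h and Atp5j were called at -0.48 ± 0.15 and -0.46 ± 0.14 (adjusted p = 0.0406 and 0.041). In the membrane part Atp5md was 1.50-fold lower (adjusted p = 0.0291). Atp5c1, Atp5h, Atp5j and Atp5md each kept the call in 1 of the 6 fits without an array. Each lost it after quantile normalization and with spike-in scaling, where the differences were -0.00065, -0.05, -0.03 and -0.16. The 3 genes of subunit c, which forms the rotating ring from 1 mature protein, were not called, at -0.31 ± 0.12 for Atp5g1, -0.18 ± 0.15 for Atp5g2 and -0.39 ± 0.13 for Atp5g3, and all 3 were above 0 with spike-in scaling (0.12, 0.25 and 0.03).

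**Figure D5:**
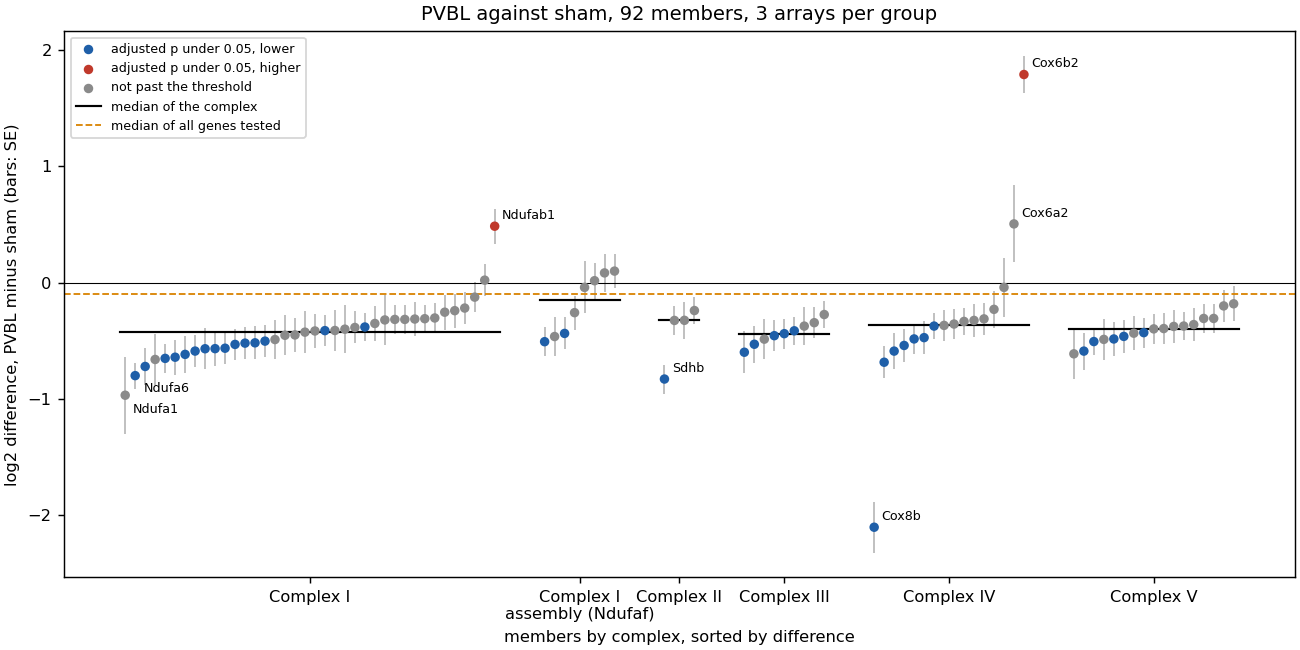
Log2 difference, PVBL minus sham, with its SE for each of the 92 members, sorted within each complex, with blue for called lower, red for called higher and grey for not called, black lines for the median of each complex and a dashed line for the median of all genes (-0.10). The medians of the complexes lie between -0.15 and -0.44, and Cox6b2, Cox8b and Ndufab1 lie away from their complexes; with spike-in scaling the medians of complexes I to V lie between -0.01 and 0.10.

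The inhibitor of ATP synthase was called higher, while no gene of the synthase was. Atpif1, which blocks ATP hydrolysis by the enzyme when the proton gradient is lost, had levels of 6.47, 6.82 and 6.71 in PVBL and 5.71, 5.60 and 5.54 in sham. All PVBL arrays were above all sham arrays. It was 2.07-fold higher (1.05 ± 0.14, limma adjusted p = 0.00205) and was called in every setting that measured it. Against the median of the 17 complex V members on the same array it was 1.45 higher in PVBL, without overlap, a description chosen after its values were seen. In its list of 38 tested assembly and regulatory factors outside the member prefixes, 3 genes were called higher and 6 lower with a median of -0.14 (0.29 with spike-in scaling). These shares were 7.89% and 15.8%, beside 15.1% and 17.8% of all genes tested. Cox11, a copper insertion factor of complex IV, and Uqcc3, an assembly factor of complex III, were lower by -0.75 and -0.75 (adjusted p = 0.0302 and 0.0139).

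Several enzymes that feed electrons into the chain from its sides were lower. In the list of cytochrome c and electron entry, 6 of 13 were called lower (46.2%, beside 17.8% of all genes tested) and 1 higher, with a median of -0.40 (0.032 with spike-in scaling). Prodh, Sardh and Prodh2, enzymes that pass electrons from amino acid breakdown to the chain, were 2.94-fold, 2.21-fold and 2.12-fold lower (limma adjusted p = 0.0144, 0.0058 and 0.0061). Cycs, cytochrome c itself, had overlapping groups and was not called (0.23, adjusted p = 0.220), and its probes disagreed, one being called lower in the deposited value table at -0.95.

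Regulators of mitochondrial biogenesis were either called lower or not called. Among 19 genes tested, 5 were called lower (26.3%, beside 17.8% of all genes tested) and none higher, and the median was -0.33 (0.10 with spike-in scaling). Ppargc1b, a coactivator for genes of the chain, was dim at -1.89, -2.84 and -2.15 in PVBL and -0.82, -0.61 and -1.10 in sham, and was 2.73-fold lower (limma adjusted p = 0.00704). Polg2, the accessory subunit of the mitochondrial DNA polymerase, and Tfb2m, a mitochondrial transcription factor, were 1.98-fold and 1.65-fold lower (adjusted p = 0.0026 and 0.0058). Esrra, the nuclear receptor whose letters were searched above, was called lower at -0.53 (adjusted p = 0.0353) and lost the call in 9 alternatives. Ppargc1a, Tfam and Nrf1, the other central regulators, were not called, at -0.37 (adjusted p = 0.208), -0.01 (0.960) and -0.03 (0.873), and Nrf1 and Tfam changed sign with median and spike-in scaling. The probes of Nrf1 disagreed, and their mean gave 0.57 without a call (adjusted p = 0.0503).

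Other mitochondrial lists gave the setting of these values. The mitochondrial ribosome, which makes the proteins of mitochondrial DNA, had 4 of 77 genes called lower and 1 higher, with a median of -0.14 (0.29 with spike-in scaling). Protein import had 1 of 26 lower and 1 higher, with a median of -0.17 (-0.00052 after quantile normalization and 0.26 with spike-in scaling). In these lists Mrps6 and Timm50 were the genes called higher, at 1.68-fold and 1.64-fold, and Mrps24, Mrps9 and Timm21 were among those called lower, with log2 differences of -0.68, -0.59 and -0.45. The shares called lower were 5.19% and 3.85%, beside 17.8% of all genes. The citric acid cycle had 6 of 19 lower (31.6%) and 1 higher, with a median of -0.22 (0.21 with spike-in scaling). There Dlat and Pcx were 1.71-fold and 1.65-fold lower and Idh2, the NADP-dependent isocitrate dehydrogenase, 1.49-fold higher. Carriers, with a median of -0.07 (0.0061 after quantile normalization and 0.35 with spike-in scaling), had none of 16 lower and 2 higher (12.5%, beside 15.1% of all genes tested). The 2 were the uncoupling proteins Ucp3 and Ucp2, at 2.04-fold and 2.02-fold (limma adjusted p = 0.0106 and 0.0117).

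The list of coenzyme Q, haem and iron-sulfur synthesis had 4 of 22 lower and 2 higher (median -0.20, or 0.23 with spike-in scaling). These shares, 18.2% and 9.09%, stand beside 17.8% lower and 15.1% higher among all genes tested. Within this list, Pdss1, which makes the side chain of coenzyme Q, was 2.11-fold higher, and Coq8a and Coq10a were 1.94-fold and 1.89-fold lower. Of 16 genes of cristae and cardiolipin 4 were lower (25%) and 1 higher (6.25%), with a median of -0.32 (0.11 with spike-in scaling): Tamm41, of cardiolipin synthesis, was higher, and Ptpmt1 and Taz, of the same pathway, were lower. Of 9 mitochondrial antioxidant genes 5 (55.6%) were called lower and none higher (median -0.49, or -0.060 with spike-in scaling), among them Sod2, Txn2 and Txnrd2 at 1.49-fold, 1.54-fold and 1.49-fold (limma adjusted p = 0.0088, 0.0224 and 0.0111). With spike-in scaling, which sets the median of all genes at 0.33, Prodh was the one gene named from these lists as lower that kept its call, and Idh2 and Tamm41 lost theirs as higher. Cox11, Esrra, Mrps9, Timm21, Ptpmt1, Taz and Txn2 lost their calls without sham 1, sham 2 or sham 3, Uqcc3 and Txnrd2 without sham 1, and Prodh without sham 2.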

How the data were processed

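Members and gene lists were chosen with earlier results of these data known. Total RNA was labelled with Cy3 per the labels' protocols. The deposited scanner files hold intensity values per spot, already background-corrected by Agilent Feature Extraction 10.7.3.1 per the file headers; the submitters' processing notes name version 9.1. The deposited series matrix gives log2 values in 7850 rows, which match 75th percentile-scaled, median-centred signals; it was used only as an alternative. After removal of control and outlier spots, repeated spots were averaged per probe and log2 intensity minus the 75th percentile of each array was taken. A probe had to be well above background on every array of 1 group or the other, the brightest probe stood for a gene, and 13586 genes were tested with limma 3.58.1 in R 4.3.3 (lmFit and eBayes, two-sided, Benjamini-Hochberg, threshold 0.05). The number of arrays, 3 per group, limits the precision, and the depth of arrays has no count. Alternatives were normexp background correction with an offset of 50 (on the median spot signal, where the mean had been planned), quantile, median and spike-in scaling, other filters, the mean over probes, array weights, a replicate block, a variance trend added after seeing the data, the value table, and leaving out each array. Genes named were, by rule, the members with the 12 largest calls in each direction, the brightest of each complex, the isoform families, members above background in 1 group alone, the 3 most changed called genes of each list, and 5 regulators; others named (for example Ndufa8 and Ndufa1) were chosen after their values were seen. Same-numbered arrays of the 2 groups had correlations of deviations of 0.165, -0.062 and 0.185, so numbers were not taken to pair samples.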

Additional observations from a re-analysis of the deposited data

How the results depend on the processing

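Members called lower, 35 as reported, numbered 11 with quantile, 15 with median and 1 with spike-in scaling, 9 without the filter on dim probes, 59 with array weights, and 6 to 48 when 1 array was left out. Members called higher, 2 as reported, numbered 1 with spike-in scaling, without the filter, in the value table and in most fits without an array (1 to 2). The median over members was -0.19 with quantile, -0.27 with median and 0.024 with spike-in scaling, and -0.49 to -0.33 without an array. Under quantile, median and spike-in scaling the medians were -0.22, -0.29 and 0.0087 for complex I, -0.12, -0.19 and 0.10 for complex II, -0.18, -0.31 and -0.0094 for complex III, -0.14, -0.23 and 0.068 for complex IV, and -0.19, -0.27 and 0.032 for complex V. The complex I median was -0.55 in the value table, which holds 42 members chosen by their group difference. Without an array the medians ranged from -0.56 to -0.33 for complex I, -0.42 to -0.24 for II, -0.53 to -0.36 for III, -0.42 to -0.28 for IV and -0.49 to -0.33 for V. The cause of these moves was not tested, beyond the smaller number of arrays.

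Of 37 called members, 29 kept their call with normexp, 12 with quantile, 17 with median and 2 with spike-in scaling. The last were Cox6b2 and Cox8b, and the call of Cox8b is no support because its probe entered the test through the sham arrays alone. With spike-in scaling 44 of the 92 members turned sign, 4 of them called lower as reported (Cox7a2l, Ndufa10, Ndufa3 and Uqcrfs1). Of the genes named by rule, signs turned with that scaling for Atp5b (0.12), Atp5g1 (0.12), Atp5g2 (0.25), Atp5g3 (0.035), Cox4i2 (0.10), Cox6a1 (0.073), Cox6b1 (0.12), Cox7a1 (0.39), Cox7a2 (0.20), Cox7a2l (0.056), Ndufa13 (0.044), Sdha (0.19), Sdhc (0.10), Sdhd (0.11), Ppargc1a (0.056), Nrf1 (0.40) and Tfam (0.42), and with quantile scaling for Atp5b (0.039), Atp5g2 (0.081), Cox6a1 (0.038), Cox7a2 (0.011) and Tfam (0.023). With median scaling Cox7a1 (0.091), Nrf1 (0.10) and Tfam (0.12) turned. With normexp Cox6a2 (-0.060) and Tfam (0.056) turned, and with the mean over probes Cycs (-0.22) and Nrf1 (0.57). Cycs was -0.95 in the value table. Array weights turned Nrf1 (0.032) and Tfam (0.019). Leaving out 1 array turned the sign for Cox7a1 (-0.27 to 0.20), Nrf1 (-0.085 to 0.071) and Tfam (-0.13 to 0.10).

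With the replicate number as a block, 16 members were called lower and 1 higher, and the labels' numbers did not pair the arrays. Signal over background limits Cox8b, which has only a bound in PVBL, and the 3 arrays per group limit every call.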
